A study of Rattus norvegicus with 8 samples.

Results

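The insulin and IGF signaling genes described here are 10 genes chosen by name, the ligands Igf1 and Igf2, the receptors Insr, Igf1r and Igf2r, the receptor substrates Irs1 and Irs2, and the IGF-binding proteins Igfbp2, Igfbp4 and Igfbp5. The choice was made with earlier results of these data known. All 10 were listed among the 17337 genes of the count data, and all 10 were among the 12014 genes that passed the filter on low counts and were tested. Messenger RNA was sequenced from the striatum of 8 wild-type male Sprague-Dawley rats, 4 that self-administered methamphetamine (METH) and 4 that self-administered saline. METH was taken by lever press through a jugular catheter at 0.05 mg/kg per infusion, in 2 h sessions over 16 days, and the saline rats had the same food training, surgery and schedule. Rats in both groups were anesthetized with ketamine and xylazine before the brain was taken, and the methods describe keeping rats whose lever pressing was stable at the end of the schedule. Age and the time from the last session to tissue collection are not given in the sources used here.

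Insulin and the insulin-like growth factors signal through tyrosine kinase receptors at the cell surface. Once bound, Insr and Igf1r phosphorylate the adaptor proteins Irs1 and Irs2, which recruit PI3 kinase and so switch on Akt and mTOR. Igf2r has no kinase and clears Igf2 into lysosomes, while the binding proteins hold the growth factors outside the cell and set how much of them reaches a receptor. In the brain, Igf2 is known mainly from the meninges, choroid plexus and vessels, and insulin reaches the tissue largely from the blood.

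The total count lay between 18135939 and 21211920 per rat, and 3 counts were worth 0.142 to 0.169 CPM, the unit used here for counts after scaling by TMM-normalized library size. Every level below is in CPM, which is not corrected for transcript length, so levels are compared between rats and not between genes. Markers of striatal projection neurons were abundant in every rat, with a summed level of 14830 to 15847 CPM over 10 genes in saline rats and of 15645 to 19614 CPM in METH rats. A pair of libraries stood apart. Saline replicate 1 held 1198 reads of Slc17a7, the vesicular glutamate transporter of cortical projection neurons, against 64, 76 and 66 in the other saline rats and 68 to 256 in the METH rats, and it also had the most reads of the cortical genes Tbr1, Neurod6 and Neurod2. METH replicate 3 had the lowest TMM factor (0.956, against 0.991 to 1.018 in the other rats) and the fewest genes with a count, 13142. Several values are given with and without these rats.

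Promoter windows from RefSeq (assembly GRCr8, 250 bases before to 50 bases after a gene's start) were matched for 9 of the 10 genes, with a second window for Igf2. Irs2 was not matched. The windows of Insr and Igf2r are shown because these receptors had the highest correlation coefficient among the gene pairs whose relation was not carried by outlying rats, and because, of the members with a window, Insr was the one whose groups did not overlap. Capitals mark the FOXO core (GTAAACA, or TGTTTAC on the other strand) and the CRE half-site (TGACG, or CGTCA). FOXO factors are the transcription factors that Akt holds out of the nucleus, and Insr and Irs2 are known FOXO targets in other tissues, while the CRE is the element bound by CREB.
Insr, chr12:6128754-6129053, minus strand: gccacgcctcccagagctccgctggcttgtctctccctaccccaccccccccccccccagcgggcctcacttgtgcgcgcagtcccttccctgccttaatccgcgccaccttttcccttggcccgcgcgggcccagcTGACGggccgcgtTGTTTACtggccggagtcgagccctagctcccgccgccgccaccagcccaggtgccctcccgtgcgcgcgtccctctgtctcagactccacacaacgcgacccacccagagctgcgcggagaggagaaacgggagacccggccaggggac
Igf2r, chr1:50526628-50526927, plus strand: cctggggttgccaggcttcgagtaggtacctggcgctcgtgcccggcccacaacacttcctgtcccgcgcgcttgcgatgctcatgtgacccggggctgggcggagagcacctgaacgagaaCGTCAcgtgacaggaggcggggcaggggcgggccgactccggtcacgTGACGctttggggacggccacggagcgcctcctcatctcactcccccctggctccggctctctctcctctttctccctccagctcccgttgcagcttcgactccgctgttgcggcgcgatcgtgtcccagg
The FOXO core was found in 1 of the 10 windows, that of Insr, at position -100 from the start, and in 3.78% of all 33469 windows of this length. The CRE half-site was found in 2 windows, once in Insr at position -113 and at positions -128 and -81 in Igf2r, and in 21.2% of all windows. The full CRE (TGACGTCA, which contains the half-site) and the AP-1 site (TGACTCA or TGAGTCA), held by 1.83% and 4.63% of all windows, were in 0 of the 10. A match describes letters in the window and is not a binding site measured here.

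Irs2 was higher in the striatum of METH rats, and it was the one member called in the comparison of METH with saline. A gene was called at a false discovery rate (FDR, Benjamini-Hochberg over all 12014 genes) below 0.05 with a mean log2 CPM above 1, in the quasi-likelihood F-test of edgeR. By that rule 1 of 10 members was called, against 0.516% of all genes tested, and 0.449% of all genes were called as higher and 0.0666% as lower in METH. Because the members were chosen with earlier results known, these shares describe the members and do not test them as a set. A tested gene with a mean log2 CPM of 1 or less, such as Igf1 (0.209), could not be called by this rule. Both receptor substrates relay the same receptors, but Irs2 and Irs1 did not show the same pattern over the rats.

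Irs2 had 1373, 1298, 1816 and 1446 reads in saline replicates 1 to 4 and 2714, 3011, 2349 and 3042 in METH replicates 1 to 4. The normalized levels of Irs2 were 75.4, 64.9, 87.7 and 68.3 CPM in the saline rats and 133, 143, 133 and 160.4 CPM in the METH rats. The lowest METH rat was well above the highest saline rat, and the spread within each group was small beside the gap between them. Saline rats averaged 74.1 ± 10.1 CPM and METH rats 142 ± 13.0 CPM of Irs2 (SD, n = 4 each). Its log2 fold change was 0.94 (standard error, SE, 0.10, 95% interval 0.72 to 1.16), which is 1.92 times the saline level, with an FDR of 0.000472 by the edgeR quasi-likelihood test. Irs2 ranked 7 among all genes tested by p-value and 28 by fold change among the 54 genes called as higher. In the exact permutation test of log2 CPM over the 70 labellings of the rats, the two-sided p was 0.0286, the smallest that 4 rats against 4 allow. Every gene whose groups do not overlap reaches this value, 6.39% of all genes tested, and Insr was among them. Without saline replicate 1 the log2 fold change of Irs2 was 0.95 (FDR = 0.00156), and without METH replicate 3 it was 0.97 (FDR = 0.00167), both by the quasi-likelihood test.

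**Figure D1:**
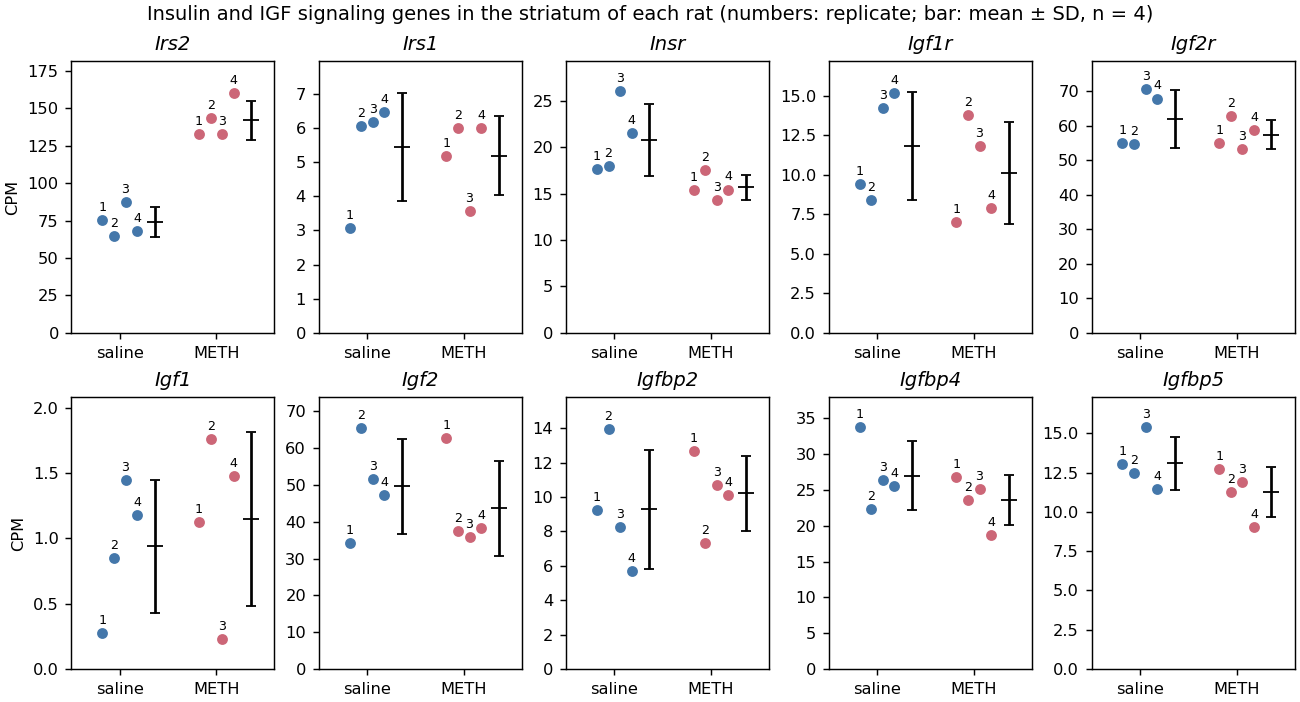
CPM of each of the 10 genes in each rat, with saline in blue and METH in red, replicate numbers above the points, and the mean ± SD (n = 4) as a bar; every axis starts at 0. The 4 METH rats sit at 133 to 160.4 CPM for Irs2, all above the 64.9 to 87.7 CPM of the saline rats, while Insr is narrowly separated in the other direction and the groups of the other 8 genes overlap.

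Irs1, the other substrate, was at 3.07, 6.05, 6.18 and 6.47 CPM in the saline rats and at 5.19, 6.0, 3.56 and 6.01 CPM in the METH rats. One rat of each group was low, saline replicate 1 and METH replicate 3, and the remaining 6 rats lay within a narrow band across both groups. The log2 fold change of Irs1 was -0.07 (SE 0.26, 95% interval -0.62 to 0.48, FDR = 0.947, quasi-likelihood test), and its sign was not fixed, being -0.26 without saline replicate 1 and 0.071 without METH replicate 3. The number of Irs2 reads per Irs1 read in the same rat was 24.5, 10.7, 14.2 and 10.6 in saline rats and 25.6, 23.9, 37.3 and 26.7 in METH rats. In saline replicate 1 this ratio lay in the METH range, and there it was Irs1 that was low while Irs2 was within the saline range.

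Marker levels of other cell types were compared with the Irs2 difference. The summed level of 12 choroid plexus genes was 7.41 to 8.20 CPM in saline rats and 8.38 to 12.8 CPM in METH rats, without overlap but with a narrow gap. Only 4 of the 12 genes passed the filter, 3 with a log2 fold change above 0 and 1 below. In each of these 4 genes the groups overlapped. Of the genes that did not pass, Ttr had 0 to 36 reads per rat and Otx2 had 0 in every rat. The summed level of 11 endothelial genes was 589 to 834 CPM in saline rats and 582 to 621 CPM in METH rats, and that of 10 microglial genes 486 to 564 CPM and 443 to 535 CPM. Over the 8 rats Irs2 had r = -0.770 and rho = -0.786 with the endothelial sum (exact permutation p = 0.0080 and 0.0279, adjusted p = 0.280 and 0.359 over 90 relations of members with marker lists), and r = -0.571 without the 2 rats farthest from the median of that sum. With the microglial sum r was -0.626 and rho -0.738 (exact permutation p = 0.103 and 0.0458, adjusted p = 0.659 and 0.516), and with the choroid plexus sum 0.679 and 0.667 (exact permutation p = 0.0596 and 0.0831, adjusted p = 0.589 and 0.575). After subtraction of the group means r was -0.817 for endothelium, -0.439 for microglia and -0.274 for choroid plexus. It was largest in size for oligodendrocytes, -0.883, where r without subtraction was -0.356 and rho -0.643 (adjusted p = 0.937 and 0.575, exact permutation test). Without the 2 rats farthest from the median of the oligodendrocyte sum, r without subtraction was 0.158. No test was attached to the values after subtraction. For astrocytes r after subtraction was -0.673, for pericytes and smooth muscle -0.640, and for meninges and fibroblasts -0.512. For striatal projection neurons it was -0.246 and for cortical projection neurons 0.322. How much of the Irs2 difference goes with these cells was not tested. In bulk tissue, fewer cells of a type and less RNA per cell cannot be told apart.

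Among the receptors, none was called. Insr, the insulin receptor, came nearest. It was at 17.7, 18, 26.0 and 21.5 CPM in the saline rats and at 15.4, 17.5, 14.3 and 15.4 CPM in the METH rats. The groups did not overlap, with METH lower, but the gap between METH replicate 2 and saline replicate 1 was small. The groups of 2 members, Irs2 and Insr, did not overlap, against 6.39% of all genes tested. Saline rats averaged 20.8 ± 3.9 CPM and METH rats 15.7 ± 1.33 CPM of Insr (SD, n = 4 each). The log2 fold change was -0.41 (SE 0.14, 95% interval -0.70 to -0.11), or 0.754 times the saline level, with an unadjusted p of 0.0107 and an FDR of 0.295 in the edgeR quasi-likelihood test. An unadjusted p below 0.05 was reached by 2 of 10 members, Irs2 and Insr, and by 11.1% of all genes. Saline replicate 3, the highest rat, weighed most on Insr, whose log2 fold change was -0.28 without it (FDR = 0.537, same test). It was -0.48 without saline replicate 1 (FDR = 0.251) and -0.37 without METH replicate 3 (FDR = 0.593).

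Igf1r, the main receptor of both growth factors, spread widely within both groups. It was at 9.44, 8.40, 14.2 and 15.2 CPM in the saline rats and at 7.0, 13.8, 11.9 and 7.91 CPM in the METH rats. The groups overlapped over most of their range, and the log2 fold change of Igf1r was -0.22 (SE 0.24, 95% interval -0.74 to 0.30, FDR = 0.755, quasi-likelihood test). Igf2r, which takes Igf2 out of circulation, was steadier, at 55.1, 54.6, 70.7 and 67.9 CPM in the saline rats and at 54.9, 62.7, 53.1 and 58.8 CPM in the METH rats. Its log2 fold change was -0.11 (SE 0.10, 95% interval -0.33 to 0.11, FDR = 0.694, quasi-likelihood test). Its interval excludes a change in Igf2r of the size seen in Irs2.

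Neither growth factor was called. Igf1, the ligand of Igf1r that mediates much of the action of growth hormone, had few reads, with 5, 17, 30 and 25 reads in the saline rats, against 23, 37, 4 and 28 reads in the METH rats. Saline rats averaged 0.939 ± 0.506 CPM and METH rats 1.15 ± 0.667 CPM of Igf1 (SD, n = 4 each). The same rats that were low for Irs1, saline replicate 1 and METH replicate 3, were the lowest for Igf1. The 95% interval of the log2 fold change of Igf1 ran from -0.94 to 1.51, which includes both 0 and a change of the size of that in Irs2. Without METH replicate 3 the log2 fold change of Igf1 was 0.62, and without saline replicate 1 it was -0.0065.

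Igf2 was at 34.2, 65.4, 51.6 and 47.3 CPM in the saline rats and at 62.8, 37.6, 35.8 and 38.3 CPM in the METH rats. METH replicate 1 was high among the METH rats, which were otherwise alike, and the saline rats spanned a slightly wider range. The log2 fold change of Igf2 was -0.19 (SE 0.20, 95% interval -0.61 to 0.24, FDR = 0.749, quasi-likelihood test), and it was -0.42 without METH replicate 1 (FDR = 0.330) and -0.024 without saline replicate 2 (FDR = 0.978). The summed level of 12 genes of meninges and fibroblasts, where Igf2 is known to be made, was highest in saline replicate 2 (88.6 CPM) and METH replicate 1 (83.7 CPM), the same rats that were highest for Igf2, and lay between 56.5 and 70.8 CPM in the others. Over the 8 rats its correlation with Igf2 on the log2 scale was r = 0.705 (exact permutation p = 0.0559, adjusted p = 0.589 over 90 relations of members with marker lists) and rho = 0.500 (exact permutation p = 0.216, adjusted p = 0.810). Without the 2 rats farthest from the median of the marker sum, r was -0.15, so that the relation rested on those rats.

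The 3 binding proteins were not called either. Igfbp2 was at 9.22, 13.9, 8.26 and 5.67 CPM in the saline rats and at 12.7, 7.33, 10.7 and 10.1 CPM in the METH rats. The groups overlapped almost entirely, with a log2 fold change of 0.14 (SE 0.24, 95% interval -0.39 to 0.67, FDR = 0.859, quasi-likelihood test). Igfbp4, a carrier known to hold IGFs away from their receptor until it is cleaved by Pappa, was at 33.8, 22.3, 26.3 and 25.5 CPM in the saline rats and at 26.8, 23.6, 25.2 and 18.8 CPM in the METH rats. The log2 fold change of Igfbp4 was -0.19 (SE 0.14, 95% interval -0.50 to 0.11, FDR = 0.621, quasi-likelihood test). It was -0.068 without saline replicate 1, the highest rat (FDR = 0.871), and -0.23 without METH replicate 3 (FDR = 0.788), by the same test. Igfbp5 was at 13.1, 12.5, 15.4 and 11.4 CPM in the saline rats and at 12.7, 11.3, 11.9 and 9.01 CPM in the METH rats, with a log2 fold change of -0.22 (95% interval -0.54 to 0.10, FDR = 0.577, quasi-likelihood test). For Igfbp4 and Igfbp5, METH replicate 4 was the lowest of all rats.

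**Figure D2:**
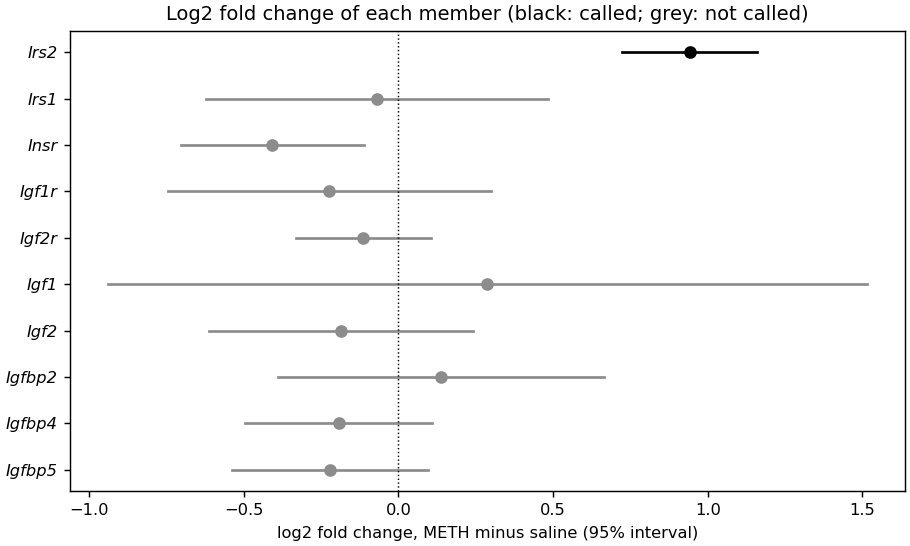
Log2 fold change (METH minus saline) of each gene as a point with its 95% interval from the quasi-likelihood fit; the called gene is black and the others grey. Irs2 lies at 0.94 with an interval of 0.72 to 1.16, Insr at -0.41 with an interval that ends at -0.11, and the intervals of the other 8 genes include 0.

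Over the 10 members the median log2 fold change was -0.15, against -0.0055 over all genes tested, with 3 values above 0 (Irs2, Igf1 and Igfbp2) and 7 below 0. The coefficient of variation between saline rats ranged from 12.8% for Igfbp5 to 53.9% for Igf1, and between METH rats from 7.40% for Igf2r to 58.1% for Igf1. Irs2 had 13.6% and 9.16%.

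The members were also compared with each other over the 8 rats, in 45 pairs. Insr and Igf2r had r = 0.854 (exact permutation p = 0.0068) and rho = 0.690 (exact permutation p = 0.0694). After subtraction of the group means r was 0.940, and without the 2 rats farthest from the median of Insr it was 0.658. Igf1r and Igfbp2 went in opposite directions, with r = -0.828 (exact permutation p = 0.0111) and rho = -0.810 (exact permutation p = 0.0218), r = -0.817 after subtraction of the group means and r = -0.711 without the 2 rats farthest from the median of Igf1r. Irs1 and Igf1 had r = 0.921 (exact permutation p = 0.0163), which fell to 0.136 without the 2 rats farthest from the median of Irs1, and rho = 0.500 (exact permutation p = 0.216). Of the 45 pairs, 4 had an unadjusted p below 0.05 for r (the fourth was Igf2r with Igfbp2, r = -0.778 and rho = -0.833) and 0 had an adjusted p below 0.05, the lowest being 0.245 for r and 0.490 for rho. The summed level of 10 astrocyte genes moved with the same genes. It had r = -0.847 and rho = -0.857 with Igf1r (exact permutation p = 0.0061 and 0.0107), r = -0.831 and rho = -0.881 with Igf2r (exact permutation p = 0.0093 and 0.0072) and r = 0.795 and rho = 0.905 with Igfbp2 (exact permutation p = 0.0194 and 0.0046). Without the 2 rats farthest from the median of the marker sum r was -0.753, -0.820 and 0.958, and over the 90 relations no adjusted p was below 0.280.

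**Figure D3:**
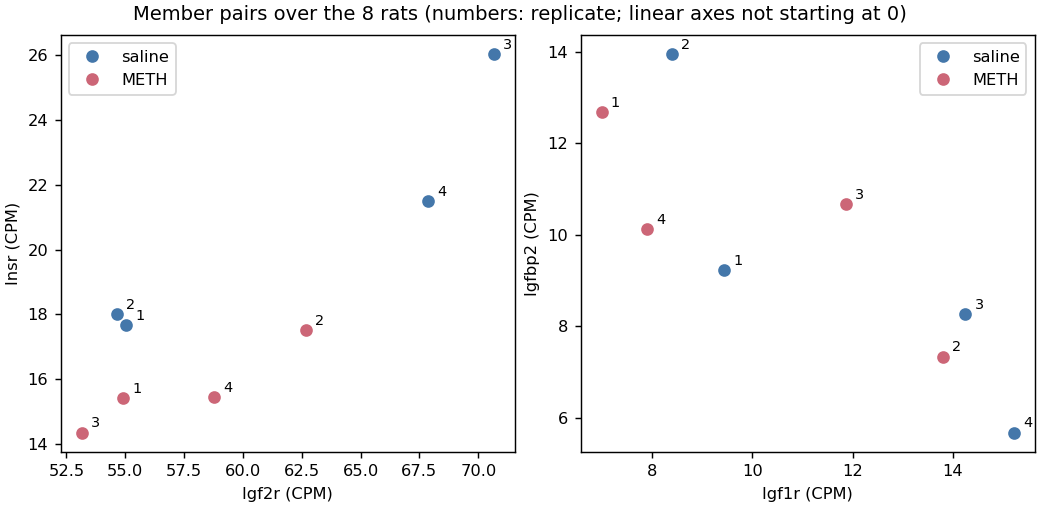
CPM of Insr against Igf2r (left) and of Igfbp2 against Igf1r (right), one point per rat with its replicate number, saline in blue and METH in red, on linear axes that do not start at 0. Saline replicates 3 and 4 are high for both Insr and Igf2r, and at a like level of Igf2r the METH rats lie below the saline rats for Insr; Igfbp2 is high where Igf1r is low in both groups.

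By Pearson correlation of log2 CPM over the 8 rats, the genes most like Irs2 were Fosl2 (r = 0.983), Kcnk1 (r = 0.971) and Nr4a3 (r = 0.968). The groups of Irs2 do not overlap, so these values mainly carry the difference between the groups, and after subtraction of the group means r was 0.768, 0.633 and 0.474. Fosl2, a member of the AP-1 family of activity-induced transcription factors, averaged 4.80 ± 1.33 CPM in saline rats, against 19.8 ± 1.59 CPM in METH rats (SD, n = 4 each), and was called with a log2 fold change of 2.05. Nr4a3, an immediate early orphan nuclear receptor, was called with a log2 fold change of 2.75. Kcnk1, a potassium channel subunit, had a log2 fold change of 0.30 and was not called (FDR = 0.114, quasi-likelihood test). The gene most like Insr was Usp22 (r = 0.990), that most like Igf2r was Slmap (r = 0.982), that most like Irs1 was Ryk (r = 0.991) and that most like Igf2 was Fbxo36 (r = 0.982). These genes were picked as the highest of all genes tested, and no test is attached to them.

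The rest of the pathway was counted over 4 lists with 98 genes, of which 87 were listed in the data and 77 were tested. By the same rule 1 of the 77, Trib1, was called as higher and 0 as lower, with 0.516% called among all genes. At an unadjusted p below 0.05 there were 8 higher and 4 lower, 15.6% of the list against 11.1% of all genes. The groups did not overlap in 7 of the 77, 9.09% against 6.39% of all genes tested. The median log2 fold change of the 77 was -0.012. The lists too were chosen with earlier results of these data known, so these shares do not test the pathway.

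Among other ligands, receptors, substrates and binding proteins, 6 genes were tested and 0 were called, with 0 at an unadjusted p below 0.05 and 0 called by DESeq2. The insulin genes themselves were hardly read in the striatum, with at most 1 read of Ins1 or Ins2 in any rat. Igfbp7, a binding protein of vessels with low affinity for IGFs, averaged 183 ± 19.6 CPM in saline rats, against 191 ± 17.4 CPM in METH rats (SD, n = 4 each), a log2 fold change of 0.061 with a 95% interval of -0.14 to 0.26. Igfbp3, the main carrier in blood, was at 3.60 ± 1.2 and 2.97 ± 0.489 CPM (SD, n = 4 each), with a log2 fold change of -0.28, and Igfbp6 had one of 0.48. Neither was called.

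Among 26 tested adaptors, phosphatases and inhibitors of the receptors, 0 were called, also by DESeq2, and 2 higher and 2 lower had an unadjusted p below 0.05. The latter were 15.4% of the list, against 11.1% of all genes tested. The groups did not overlap in 3 of the 26, 11.5% against 6.39% of all genes. Ptpn1, the phosphatase PTP1B that removes phosphate from Insr, was at 28.4, 29.4, 36.3 and 34.1 CPM in saline rats and at 39.9, 44.5, 38.6 and 39.2 CPM in METH rats. All METH rats were above all saline rats, with a log2 fold change of 0.34 (SE 0.10) and FDR = 0.224 by the quasi-likelihood test. Sh2b1, an adaptor of Insr, had a log2 fold change of 0.18 (FDR = 0.421, same test). Grb14, an inhibitor of Insr, had one of -0.25 (FDR = 0.416), and Enpp1, a membrane glycoprotein known to hinder Insr, one of -0.51 (FDR = 0.426), both without overlap between the groups. Without METH replicate 3, Sh2b1 had a value of 0.13 (FDR = 0.745) and Enpp1 one of -0.41 (FDR = 0.718) on the same scale and by the same test.

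In the PI3K, Akt and mTOR arm 37 genes were tested, and Trib1 was called. An unadjusted p below 0.05 was reached by 16.2% of the 37, against 11.1% of all genes tested. The groups did not overlap in 3 of the 37, 8.11% against 6.39% of all genes. Trib1 is a tribbles pseudokinase, placed in the list for its family, whose member Trib3 binds Akt, while Trib1 itself is known chiefly as a partner of the ubiquitin ligase Cop1. It was at 7.90, 7.20, 5.75 and 8.79 CPM in saline rats and at 14.9, 16.7, 15.4 and 15.9 CPM in METH rats, a clear separation like that of Irs2. The log2 fold change of Trib1 was 1.08 (SE 0.15, 95% interval 0.76 to 1.40, FDR = 0.00333, quasi-likelihood test). It was 1.11 without saline replicate 1 (FDR = 0.00916) and 1.09 without METH replicate 3 (FDR = 0.0118).

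Rheb, the small GTPase that activates mTOR, was at 150.1, 152, 156 and 159 CPM in saline rats and at 191, 192, 181 and 208 CPM in METH rats. The groups did not overlap, and the log2 fold change of Rheb was 0.32 (SE 0.07) with FDR = 0.0739 by the quasi-likelihood test, so that it was not called. It was called by the Wald test of DESeq2 (FDR = 0.00109) and by the likelihood ratio test of edgeR (FDR = 0.00893). Pik3r1, the PI3 kinase regulatory subunit that docks on Irs proteins, was at 51.4, 53.4, 62.8 and 53.6 CPM in saline rats and at 42.0, 49.7, 40.0 and 45.6 CPM in METH rats. The groups did not overlap, with a log2 fold change of -0.32 (SE 0.10, FDR = 0.232, quasi-likelihood test). Pdpk1, the kinase that activates Akt, had a log2 fold change of -0.38 (FDR = 0.420), Rps6kb2, an S6 kinase, one of 0.44 (FDR = 0.356) and Eif4ebp1, a translation repressor under mTOR, one of 0.43 (FDR = 0.436), and none of these was called. Without METH replicate 3 the log2 fold change of Rps6kb2 was 0.23 (FDR = 0.711), that of Eif4ebp1 0.27 (FDR = 0.796) and that of Pdpk1 -0.27 (FDR = 0.751). The lowest value of the list was that of Slc2a4, the insulin-responsive glucose transporter, -0.55 (FDR = 0.509).

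The last list holds genes put down as proteases of IGF-binding proteins or as their inhibitors, and no cleavage was measured. Of its 8 tested genes, 0 were called, also by DESeq2, and 2 (25%, against 11.1% of all genes) were higher at an unadjusted p below 0.05. These were Cfd, with 0.862 ± 0.414 and 1.82 ± 0.463 CPM (SD, n = 4 each) and a log2 fold change of 1.07 (FDR = 0.347), and Adamts1, with 8.52 ± 0.885 and 11.2 ± 2.42 CPM (SD, n = 4 each) and one of 0.39 (FDR = 0.430), both by the quasi-likelihood test. Cfd had 11 to 50 reads per rat and a mean log2 CPM of 0.534, below the threshold of 1, so it could not be called. By its FDR it would not have been called without that threshold either. The groups of Cfd did not overlap, as in 12.5% of the list and 6.39% of all genes tested. Whether Cfd acts on IGF-binding proteins is not shown by these data.

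**Figure D4:**
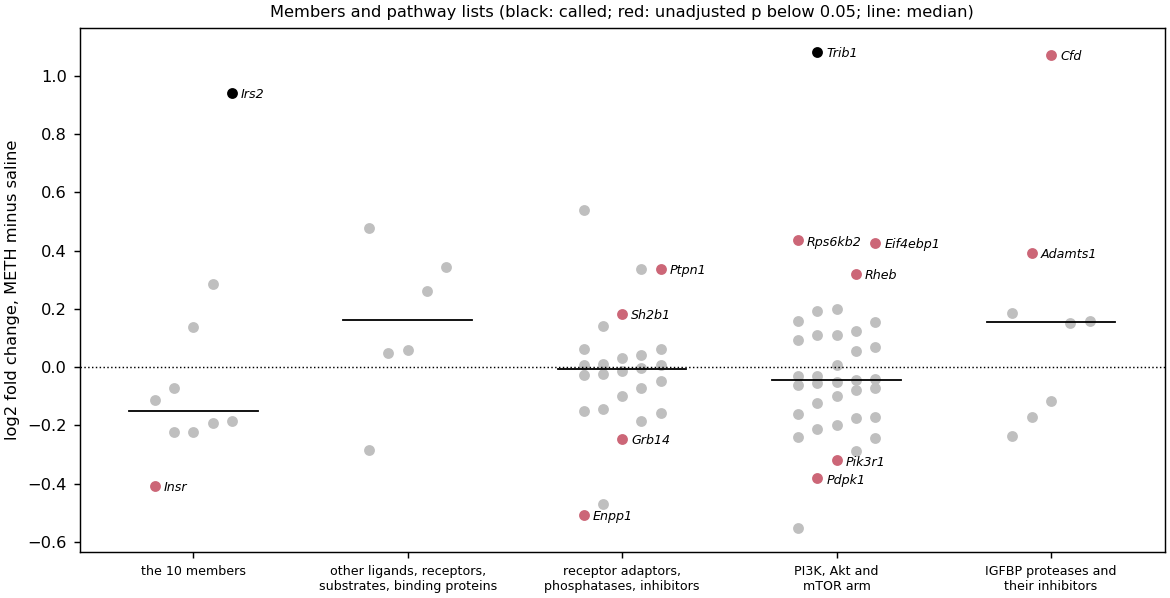
Log2 fold change (METH minus saline) of the 10 members and of the tested genes in 4 lists of the pathway, one point per gene, black where called, red where the unadjusted p was below 0.05, with a line at each median. Irs2 at 0.94 and Trib1 at 1.08 are the called genes, and the medians lie between -0.15 and 0.16.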

How the data were processed

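Poly(A) RNA of the striatum of 8 rats was sequenced with a library kit that does not mark strand. The authors used Cutadapt 1.18 to trim the paired reads, STAR 2.7.0e for alignment to rn6 and featureCounts (Subread 1.6.4) for counting per gene, and the deposited values are raw counts, 1 column per rat. Annotation and handling of multi-mapping reads are not given in the sources used here, and reads from antisense transcripts (such as Airn at Igf2r) cannot be told apart. From these counts, R 4.3.3 with edgeR 4.0.16 was used to filter genes (filterByExpr, minimum count 10), normalize with TMM and fit METH against saline with the quasi-likelihood F-test. Standard errors are the log2 fold change divided by the square root of F, and log2 CPM used a prior count of 2. Alternatives used limma 3.58.1 and DESeq2 1.42.0.

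Genes named were mainly drawn from the members, list genes called, at an unadjusted p below 0.05 or at the ends of a list, the 3 genes most like each member, and references. Not every gene of these kinds was named, and some others, such as Igfbp7, were named outside these rules. Members and lists were chosen with earlier results of these data known. No pair of rats within a group agreed within counting noise (chi-square over its degrees of freedom 10.1 to 27.6). On simulated counts for 11944 genes, 163 of 198 genes with a true log2 fold change of 1 in size were called (82.3%). In the same simulation 10 genes without a true change were called. Smaller changes were not simulated. All intervals given are those of fold changes and include the spread between rats. Same-numbered rats are different animals.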

Additional observations from a re-analysis of the deposited data

Results flagged for a closer look

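Each group of 4 rats was checked for a rat whose gap to its neighbour took most of the group's range on the log2 CPM scale, by Dixon's 95% critical value for 4 samples. Of 20 groups, 2 were past it, where chance gives about 1 in 20. Irs1 in saline replicate 1 was the lowest saline value, with a gap share of 0.908 (56 reads, against 121 to 137 in the other saline rats). Igf2 in METH replicate 1 was the highest METH value, with a gap share of 0.879 (1283 reads, against 634 to 790 in the other METH rats).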

How the results depend on the processing

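Irs2 was called, and was the only member called, under all alternatives tried, with a log2 fold change of 0.88 to 1.03 and an FDR of 5.6e-15 to 0.0106. With a rat left out its log2 fold change was likewise 0.88 to 1.03. Insr was called under none (FDR 0.171 to 0.593). The log2 fold change of 3 genes changed sign with a rat left out. Irs1 ranged from -0.26 to 0.071 (0.0229 without saline replicate 4), Igf1 from -0.0065 (without saline replicate 1) to 0.62 and Igfbp2 from -0.0401 (without saline replicate 4) to 0.40. Trib1 was the 1 pathway gene called, and Rheb made 2 with the Wald test of DESeq2 and with the likelihood ratio test. Over all genes, 62 were called (54 higher, 8 lower). DESeq2 called 191 (141 higher, 50 lower), the likelihood ratio test 170 (131 higher, 39 lower), and without the filter on low counts 13 were called lower. With a rat left out the calls ranged from 37 (without saline replicate 2) to 70, the higher from 35 to 66 and the lower from 2 to 9. The causes were not tested. With the replicate block 37 were called (35 higher, 2 lower), and Irs2 had an FDR of 0.0106. The rat numbers did not pair the rats (correlation of deviations -0.20 to 0.036, with 2 of 8 rats most like their own number). Igf1 had 4 to 37 reads per rat and a coefficient of variation of 53.9% and 58.1% within the groups, and the parts of depth and of spread between rats in its wide interval were not tested.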

Other observations

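Markers of other cells in the tissue were counted by the same rule. Of 10 microglial genes 1, the fractalkine receptor Cx3cr1, was called as lower (31.2 ± 4.43 CPM in saline and 18.8 ± 3.44 CPM in METH rats, SD, n = 4 each), and among the tested genes of choroid plexus (4), meninges and fibroblasts (10), endothelium (11), pericytes and smooth muscle (10), astrocytes (10), oligodendrocytes (10), striatal projection neurons (10) and cortical projection neurons (3) there were 0 calls by the edgeR quasi-likelihood test. DESeq2 called 1 gene each of endothelium (Tie1), astrocytes (Gjb6), microglia (Cx3cr1) and oligodendrocytes (Opalin). At an unadjusted p below 0.05 the lists from choroid plexus to cortical projection neurons held 1, 0, 4, 4, 1, 2, 2 and 0 genes in the order given. As shares of the tested genes these were 25%, 0%, 36.4%, 40%, 10%, 20%, 20% and 0%. The microglial list had 20%, and all genes tested had 11.1%. By the calling rule the share over all genes was 0.516%. The endothelial list had 10 of 11 log2 fold changes below 0 and a median of -0.21, with Tie1, a receptor of the angiopoietin system, at -0.47 (FDR = 0.0502, edgeR quasi-likelihood test), just outside the threshold. In the cortical list, Lamp5 had 4048 to 4970 reads in every rat and carried most of the summed level.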
